A study of Mus musculus with 8 samples.

Results

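The transcripts of the cytosolic ribosomal proteins were followed in livers of 80-week-old and 8-week-old male mice taken 8 h after acetaminophen, a painkiller that damages hepatocytes in overdose. Members were the array's non-control probes whose gene name began with Rpl or Rps and a number, plus Rpsa, Rplp0, Rplp1 and Rplp2, without the Rps6k kinases. This gave 87 gene names on 190 probes, of 36666 named genes on 56605 probes. Names ending in -ps and a number, of which there were 4, were left out as well. Of the 87 names, 30 were small-subunit genes, 46 were large-subunit genes, 10 were paralogs or retrogenes, and 1, Rps19bp1, met the name rule although its product binds Rps19 and is not a ribosomal protein. The groups were 4 livers at 80 weeks and 4 at 8 weeks, all from acetaminophen-treated males. No source used here gives the dose, the strain, or whether each array held its own animal. The p-values therefore cover only the variation among these 8 samples, part of which may be technical. RNA was labelled with Cy3 and hybridised to single-colour Agilent arrays on 1 slide, with the 80-week livers in its row 2 and the 8-week livers in its row 1, so slide row and age cannot be told apart. Untreated livers were not analysed here.

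Each ribosome joins a small subunit, which reads the mRNA, to a large subunit, which forms the peptide bond. Most of their proteins are needed in equal numbers, and the mRNAs are among the most abundant in a hepatocyte. In vertebrates these mRNAs start with a run of pyrimidines, the terminal oligopyrimidine tract, through which mTORC1 and the RNA-binding protein LARP1 set how strongly they are translated. Their synthesis is tied to that of ribosomal RNA in the nucleolus, where subunits are assembled by a large set of biogenesis factors. Free ribosomal proteins, above all Rpl5 and Rpl11, can bind Mdm2 and so stabilise p53.

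The starts of the genes are shown first, because the pyrimidine run is the sequence feature that these genes are known to share. Below are the 30 bases before and the first 30 bases from the RefSeq start on build GRCm38.p6, each on the gene's own strand. Capitals mark the longest run of 8 or more C or T that starts between 10 bases before and 30 bases after that start. The first 8 genes hold such a run, and Rpl24 and Rps27l hold none in that stretch and are shown for contrast. Runs that start farther upstream, as in Rps15a and Rps27l, are left in lower case. Rps24 and Rps27l had 2 RefSeq entries each, and an entry with a run was shown where there was one.
Rps15a (chr7:118116118-118116177, minus strand): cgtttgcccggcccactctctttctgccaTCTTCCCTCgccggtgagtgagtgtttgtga
Rps12 (chr10:23787180-23787239, minus strand): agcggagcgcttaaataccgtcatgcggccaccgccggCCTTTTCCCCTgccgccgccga
Rps18 (chr17:33955636-33955695, minus strand): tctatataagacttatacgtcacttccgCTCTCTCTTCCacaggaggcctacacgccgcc
Rps6 (chr4:86857338-86857397, minus strand): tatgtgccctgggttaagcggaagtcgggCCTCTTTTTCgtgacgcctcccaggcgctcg
Rpl35 (chr2:39005102-39005161, minus strand): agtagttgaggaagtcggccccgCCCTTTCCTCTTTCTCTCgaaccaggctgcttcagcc
Rplp2 (chr7:141447621-141447680, plus strand): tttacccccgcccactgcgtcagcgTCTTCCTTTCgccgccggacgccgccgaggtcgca
Rps27 (chr3:90213619-90213678, minus strand): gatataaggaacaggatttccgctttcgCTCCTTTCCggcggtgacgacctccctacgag
Rps24 (chr14:24490648-24490707, plus strand): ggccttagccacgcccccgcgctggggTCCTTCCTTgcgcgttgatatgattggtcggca
Rpl24 (chr16:55966245-55966304, plus strand): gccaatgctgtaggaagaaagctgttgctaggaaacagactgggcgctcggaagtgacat
Rps27l (chr9:66946056-66946115, plus strand): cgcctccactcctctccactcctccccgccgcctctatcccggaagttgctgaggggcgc
A run in that stretch was found in 32 of the 56 tested subunit genes that had an entry in the RefSeq table (57.1%), against 17.3% of the 26958 other genes with one and 15.9% of 69 mitochondrial ribosomal protein genes. Of the 87 members, 67 matched an entry. A gene with several entries counted as holding a run or sequence if any entry held it, for members and other genes alike. CTTTCC on the gene's own strand, within 30 bases before to 50 bases after the start, stood in 17 of 56 (30.4%), against 4.3% of other genes, and it can lie inside a pyrimidine run. CGGAAG, the core that ETS-family factors recognise, was found on either strand of the 300-base window in 39 of 56 (69.6%), against 18.7% of other genes and 56.5% of the mitochondrial ribosomal protein genes. These are matches of letters at annotated starts, not measured sites. Of the age comparison, the median log2 difference, 80-week minus 8-week, was -0.18 over the 32 with a run and -0.16 over the 24 without one. Those with CTTTCC had a median of -0.12 and the 39 without it a median of -0.20.

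Every signal here is log2 of the scanner's processed intensity minus that array's 75th percentile, and a gene is given by its brightest probe that passed the detection filter. Signals of different probes are on different scales, so groups are compared within a probe. Of the 87 members 83 were tested, in a fit over 17565 genes. The 4 others were the paralogs Rpl3l, Rpl10l and Rpl39l and the large-subunit gene Rpl37, whose single probes were well above background on at most 1 of the 8 arrays. Rpl3l is known as a muscle form and Rpl10l and Rpl39l as testis forms of their partners. The probe of the retrogene Rpl37rt was well above background on every array. What the probes of Rpl37 and Rpl37rt bind was not tested, so they do not show that Rpl37 is absent from these livers.

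No subunit gene passed the threshold of 0.05 on limma's adjusted p, but 74 of the 75 tested had a difference below 0. In the same fit 0.0285% of all genes passed as lower and 0.33% as higher, and 48% had a difference below 0. The median difference was -0.17 over the 30 small-subunit genes and -0.17 over the 45 large-subunit genes, or 0.890-fold over both together, against 0.02 over all tested genes. At an unadjusted limma p under 0.05 there were 0 subunit genes, against 6.14% of all genes as lower and 7.91% as higher, and the smallest adjusted p was 0.385. The 80-week and 8-week arrays did not overlap for 13 subunit genes, all lower at 80 weeks, and for 0 in the other direction. They were Rpsa, Rps2, Rps6, Rps13, Rps26, Rpl6, Rpl7, Rpl7a, Rpl8, Rpl13, Rpl18, Rpl24 and Rplp0. Among all genes that share was 3.76% lower and 4.62% higher. Members share their arrays, so the 75 genes are not independent replicates.

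**Figure D1:**
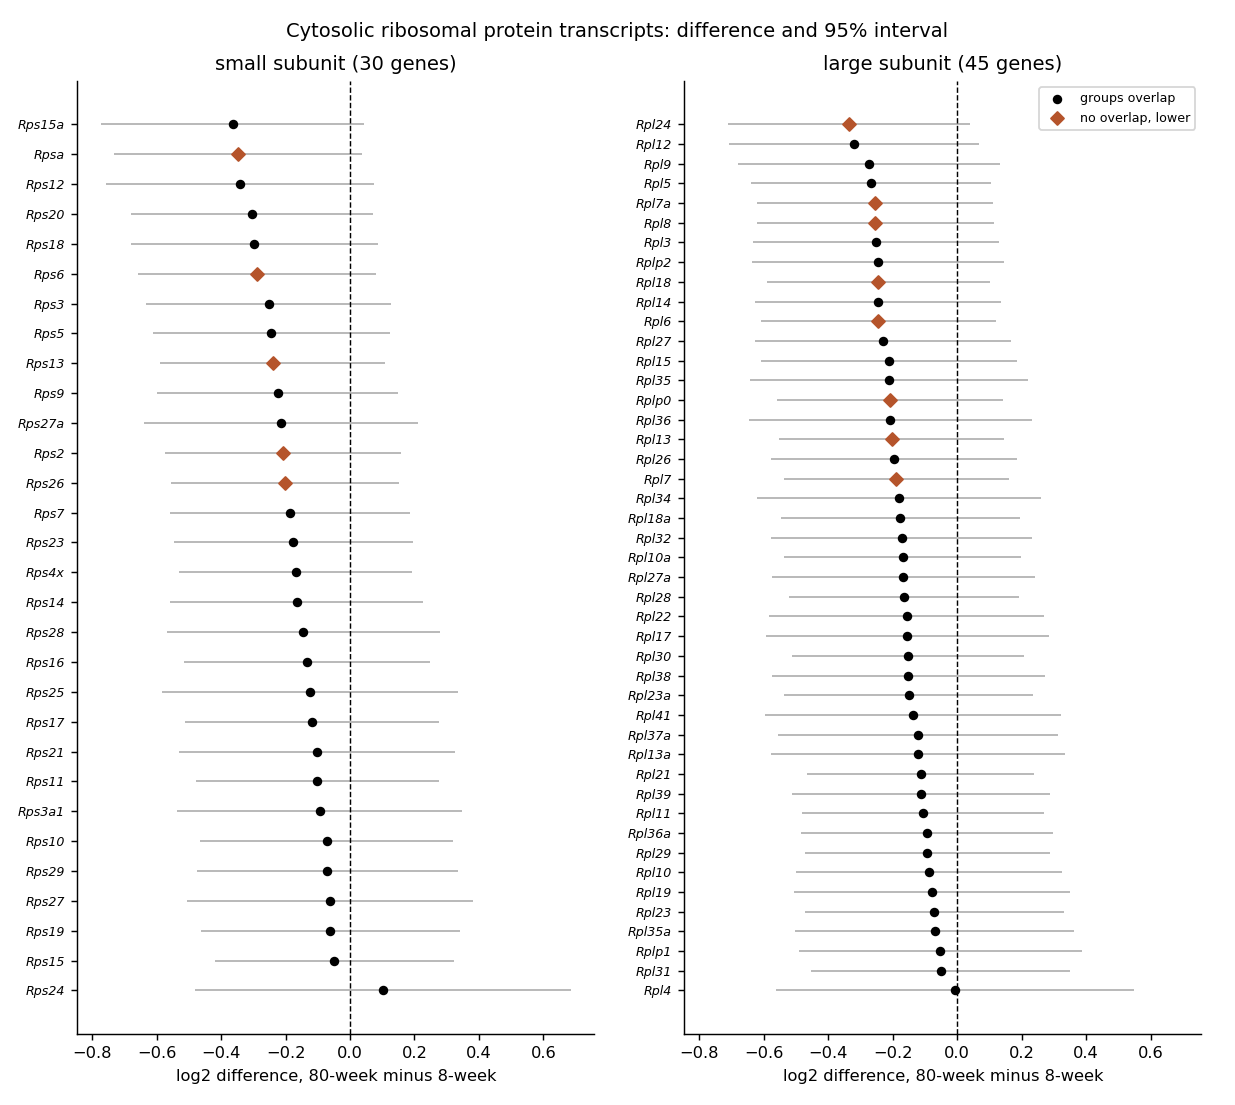
Log2 difference, 80-week minus 8-week livers (horizontal axis), for the 30 small-subunit and 45 large-subunit genes (rows), with limma's 95% interval as grey lines; diamonds mark the 13 genes whose 4 arrays per group did not overlap. Every point except Rps24 lies below 0, and every interval crosses 0.

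Among small-subunit genes Rps15a had the most negative difference. Its probe (mm9 chr7:125253420-125253479) gave 5.54, 5.52, 5.94 and 5.88 in 80-week livers, against 6.23, 6.04, 5.94 and 6.13 in 8-week livers, so the groups overlapped only at their edge. The difference was -0.36 (SE 0.18, limma adjusted p = 0.389). Rpsa, also known as the laminin receptor precursor, gave 7.23, 7.17, 7.07 and 6.79 in 80-week livers, against 7.50, 7.41, 7.37 and 7.37 in 8-week livers. All 4 of its 80-week arrays lay below all 8-week arrays, and the difference was -0.35 (SE 0.17, limma adjusted p = 0.385). Rps12, whose fly counterpart takes part in cell competition, gave 7.21, 7.25, 7.64 and 7.41 in 80-week livers, against 7.92, 7.49, 7.66 and 7.81 in 8-week livers, and the groups overlapped. Rps6, the subunit protein that S6 kinase phosphorylates, gave 6.55, 6.58, 6.77 and 6.68 in 80-week livers, against 7.09, 6.89, 6.79 and 6.97 in 8-week livers. These groups did not overlap, though 80-week replicate 3 and 8-week replicate 3 nearly met, and the difference was -0.29 (SE 0.16, limma adjusted p = 0.435). Rps20 had a difference of -0.30, and Rps3, which lines the channel where mRNA enters, one of -0.25. Rps27a, which is made as a fusion with ubiquitin, had a difference of -0.21. Rps14, whose loss of 1 copy marks a human myelodysplastic syndrome, stood at -0.17, and Rps19, the gene most often mutated in Diamond-Blackfan anaemia, at -0.06.

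Rps24 was the only subunit gene with a difference above 0. It gave 8.42, 8.10, 8.35 and 8.21 in 80-week livers, against 8.75, 7.56, 8.00 and 8.38 in 8-week livers. The 8-week arrays lay both above and below the 80-week ones, and the difference of 0.10 had a 95% interval from -0.48 to 0.69. It was -0.0031 under median scaling, -0.18 over the mean of its probes, and -0.10 without 8-week replicate 2. Its 4 tested probes gave differences of 0.10, -0.17, 0.26 and -0.92. The mRNA of Rps24 is known to vary in its last exons by splicing.

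All 45 tested large-subunit genes had a difference below 0, from -0.34 to -0.0082. Rpl24, which forms a bridge to the small subunit, gave 5.84, 5.95, 6.05 and 6.12 in 80-week livers, against 6.50, 6.30, 6.17 and 6.32 in 8-week livers. The groups did not overlap, and the difference was -0.34 (SE 0.17, limma adjusted p = 0.389). Rpl12, at the base of the stalk, gave 6.95, 7.04, 7.12 and 6.91 in 80-week livers, against 7.57, 7.32, 7.11 and 7.32 in 8-week livers, with an overlap of 1 array from each group. Of the pair that binds Mdm2, Rpl5 stood at -0.27 and Rpl11 at -0.11, and both intervals crossed 0. Rpl3, which lies by the peptidyl transferase centre, stood at -0.25. Rpl10, which joins the subunit late in its maturation, stood at -0.09, and Rpl13a, known in human cells for a second role in repressing translation of inflammatory mRNAs, at -0.12.

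The stalk proteins Rplp0, Rplp1 and Rplp2 bring the elongation factors to the ribosome. Rplp0 gave 6.84, 6.85, 6.85 and 6.97 in 80-week livers, against 7.18, 7.06, 6.99 and 7.12 in 8-week livers, so that the groups did not overlap by a narrow margin, with a difference of -0.21. Rplp1 gave 8.60, 8.27, 8.33 and 8.29 in 80-week livers, against 8.54, 8.04, 8.46 and 8.66 in 8-week livers. The groups overlapped over most of their range, and its difference of -0.05 turned to 0.026 without 8-week replicate 4. Rplp2 gave 8.28, 8.24, 8.39 and 8.26 in 80-week livers, against 8.61, 8.23, 8.63 and 8.69 in 8-week livers. The 8-week replicate 2 lay just below its 80-week arrays, and the other 8-week arrays lay above them. The limma adjusted p was 0.540 for Rplp0, 0.916 for Rplp1 and 0.516 for Rplp2.

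Outside the name rule, Fau, which is made as a fusion of a small-subunit protein with a ubiquitin-like protein, differed by -0.15 (limma adjusted p = 0.741). Rack1, a scaffold on the small subunit, differed by -0.08 (limma adjusted p = 0.856). Neither passed the threshold.

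Set against each gene's own mean over the 8 arrays, the members moved together from array to array. The median of the small-subunit genes was -0.09, -0.17, 0.02 and -0.08 in 80-week livers, against 0.22, -0.13, 0.07 and 0.19 in 8-week livers. The large-subunit median was -0.12, -0.14, 0.01 and -0.09 in 80-week livers, against 0.22, -0.16, 0.06 and 0.17 in 8-week livers. By these medians, 8-week replicates 1, 3 and 4 lay above all 80-week arrays, and 8-week replicate 2 lay among the lowest. On the same measure the median of all tested genes was 0.0048, -0.0036, 0.01 and 0.05 in 80-week livers. In 8-week livers it was -0.03, -0.14, 0.04 and 0.09. As in 80-week replicate 3, the subunit medians in 8-week replicate 2 lay close to that of all genes. In 8-week replicate 2, 21 of 75 subunit genes were above their mean, against 74, 64 and 75 in the other 8-week arrays and 13, 0, 42 and 10 in the 80-week arrays. The first principal component of the 75 genes took up 66.4% of their variance, with scores of -0.81, -1.48, 0.14 and -0.72 in 80-week livers, against 2.04, -1.35, 0.58 and 1.60 in 8-week livers. Over all tested genes with a value on every array, the first component took up 49.1% of the variance. The array of 8-week replicate 2 also had the highest 75th percentile, 353 intensity units, where the 80-week arrays ran from 155 to 265 and the other 8-week arrays from 178 to 225. It had the largest share of probes above background too, 50.4% against 43.3% to 46.9%. The part of these array differences in the members' values was not tested.

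**Figure D2:**
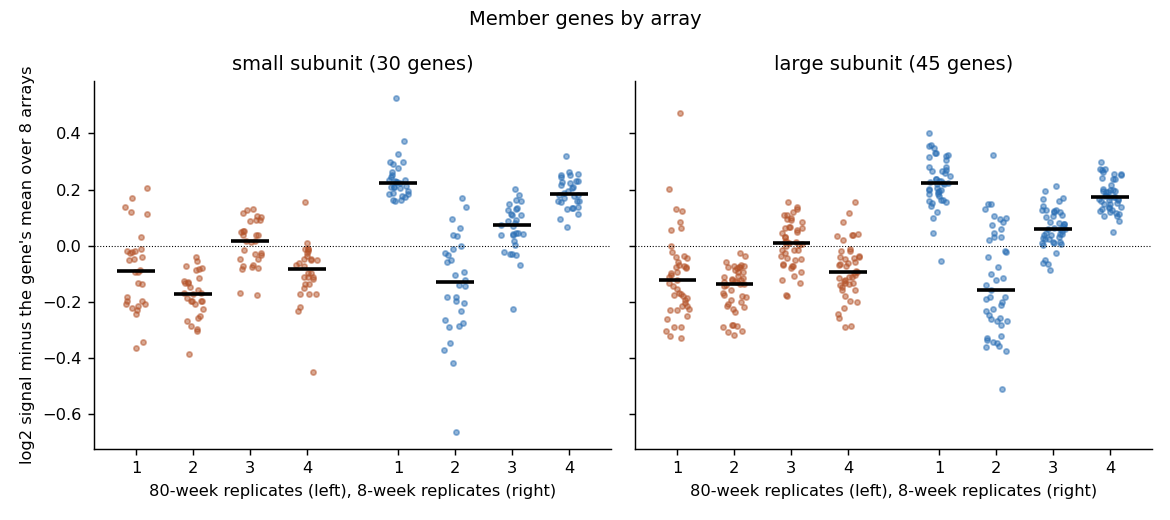
Log2 signal of each subunit gene minus its mean over the 8 arrays (vertical axis), for 80-week replicates (left, orange) and 8-week replicates (right, blue); points are genes and black bars are array medians. The medians of 8-week replicates 1, 3 and 4 lie above those of the 80-week arrays. The median of 8-week replicate 2 lies among the lowest. Points of single genes are not all separated in this way.

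Among the 8-week arrays, replicate 2 had the lowest subunit medians, so leaving it out lowers the subunit genes' differences on the whole by construction. The values without it are a description and add no support. Leaving it out, all 75 subunit genes had a difference below 0 (53.9% of all genes). The median over them was -0.24, against -0.03 over all genes, and 41 had no overlap, where 6.83% of all genes had none in that direction. In that fit 0 passed the threshold on limma's adjusted p (0.0171% of all genes as lower) and 4 had an unadjusted p under 0.05 (4.83% of all genes as lower). Without 8-week replicates 1 and 2, which stood apart from the other 6 arrays on the first principal component of all genes, the median was -0.20 with 43 genes not overlapping. The share of all genes not overlapping and lower was then 14.1%, and their median difference was -0.06. Relative to the median of all genes, the small-subunit median was -0.15 and the large-subunit median -0.14. With all arrays each stood at -0.19, so on this measure the difference was smaller. A difference below 0 was seen in 74 of 75 subunit genes and 57.5% of all genes, and 0 subunit genes passed the threshold of limma's test, against 0.0114% of all genes as lower. With fewer arrays in a group, groups are more often free of overlap.

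The medians of both subunits lay close together, and their difference was not tested. The small-subunit median minus the large-subunit median ran from -0.04 to 0.03 over the 8 arrays and was -0.0033 for the difference between the ages. The array carried 66 member probes, of 49 genes, at 10 spots each. Their log2 SD between spots of 1 array had a median of 0.043, and their SD between samples of 1 group one of 0.15, which includes the error of the spots.

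Paralogs of core proteins were compared with their partners. Rps27l, a p53 target closely related to Rps27, was the only paralog with a difference above 0. It gave 6.60, 6.38, 6.96 and 6.88 in 80-week livers, against 6.60, 5.70, 6.61 and 6.80 in 8-week livers, with 8-week replicate 2 the lowest. The difference of 0.27 (SE 0.27, limma adjusted p = 0.648) was -0.0045 without 8-week replicates 1 and 2, and its second probe gave 0.27. Rps27 itself gave 7.80, 7.57, 7.82 and 7.75 in 80-week livers, against 7.97, 7.35, 7.90 and 7.96 in 8-week livers, a difference of -0.06. The array's annotation places its probes on chromosome 9, whereas RefSeq places the gene on chromosome 3. The log2 ratio of Rps27l to Rps27, centred on its mean over the arrays, was -0.0018, 0.0056, 0.35 and 0.32 in 80-week livers, against -0.17, -0.45, -0.08 and 0.04 in 8-week livers. The ratio was 0.34 higher at 80 weeks, with an exact two-sided permutation p of 0.0857 and an adjusted p of 0.286 over the 5 pairs measured. The smallest p that 4 arrays against 4 allow is 0.0286.

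The other pairs moved less. Rpl22l1, whose expression Rpl22 is known to repress in mice, differed by -0.07 and Rpl22 by -0.16, a ratio change of 0.09 (exact permutation p = 0.257, adjusted p = 0.429). Rpl36al over Rpl36a changed by -0.15 (exact permutation p = 0.114, adjusted p = 0.286). Rpl7l1, a nucleolar relative of Rpl7, had a difference of -0.30 and its ratio to Rpl7 one of -0.12 (exact permutation p = 0.343, adjusted p = 0.429). Rps4l over Rps4x changed by -0.05 (exact permutation p = 0.800, adjusted p = 0.800), with values that ranged from -0.58 to 0.41 in 80-week livers and from -0.42 to 0.51 in 8-week livers. Probes of near-identical genes can take up RNA of either, so these ratios may understate a change.

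**Figure D3:**
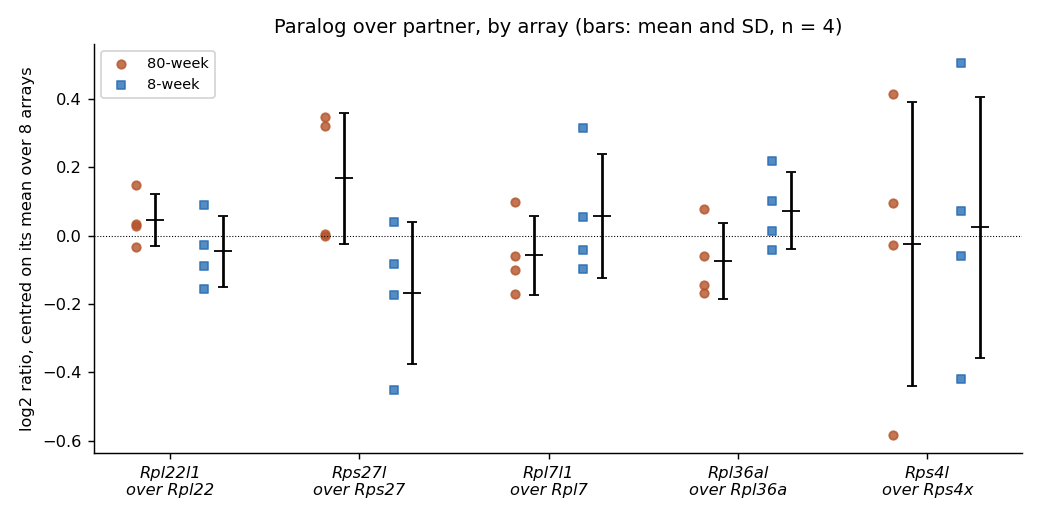
Log2 ratio of each paralog to its partner, centred on the mean over 8 arrays (vertical axis), for the 5 measured pairs; orange circles are 80-week and blue squares 8-week arrays, and bars give mean and SD (n = 4). The ratio of Rps27l to Rps27 has the widest gap between groups, and both groups overlap in all 5 pairs.

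Many members had several probes, which served as a check within the array. Over 53 subunit genes with at least 2 tested probes at a mean signal above 4, the differences of a gene's probes lay a median of 0.05 apart, and in 52 of the 53 every such probe was below 0. The exception was Rps24, where they spanned 0.44. Probe positions on mm9 lay on the gene's RefSeq chromosome for 182 of 190 probes. Those of Rps27 and Rps29, and 1 probe each of Rpl13 and Rpl36, were placed on another chromosome by the array's annotation, and 1 had no position.

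Differences were more negative among dim probes, a description by brightness and not by transcript level. The 17 subunit probes with a mean signal below 2 had a median difference of -0.43, against -0.17 over the 106 above 6, -0.20 over the 42 from 4 to 6 and -0.22 over the 5 from 2 to 4. Other genes' probes in the same ranges had medians of 0.0014, 0.06, 0.05 and 0.03. Of the 17, 14 were annotated only to transcript models other than RefSeq, and 13 were more negative than the brightest probe of their gene. All 4 subunit probes with an unadjusted limma p under 0.05, of 170 tested, were among them, against 6.39% of all probes as lower. On the adjusted p 0 of the 170 passed, against 0.0311% of all probes as lower. The largest was a probe of Rpl41 (mm9 chr10:127985564-127985623), the gene of the smallest ribosomal protein. It gave 0.98, 1.56, 0.29 and 0.76 in 80-week livers, against 2.50, 2.62, 1.68 and 1.38 in 8-week livers, with 8-week replicates 1 and 2 highest and 1 array of each group in overlap. The difference was -1.15 (SE 0.36, limma adjusted p = 0.260), while the other 2 probes of Rpl41 gave -0.14 and -0.02. The other 3 were probes of Rpl6 (-1.04), Rps24 (-0.92) and Rpl26 (-0.54). What these probes bind was not tested.

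**Figure D4:**
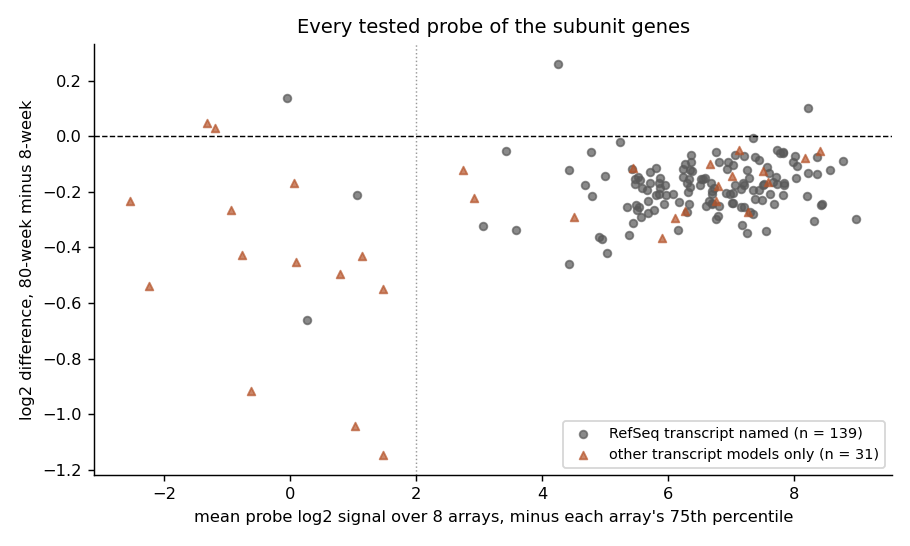
Log2 difference, 80-week minus 8-week (vertical axis), against mean probe signal over 8 arrays (horizontal axis, log2 relative to each array's 75th percentile) for the 170 tested probes of subunit genes; grey circles name a RefSeq transcript and orange triangles do not. Probes left of the dotted line at 2 spread down to -1.15, and nearly all brighter ones lie between -0.46 and 0.

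Genes that act with the ribosome were read from lists chosen with earlier results of these data known. Of 82 tested ribosome biogenesis genes, 77 had a difference below 0, with a median of -0.59, and 0 passed the threshold on limma's adjusted p. An unadjusted limma p under 0.05 was reached by 34 as lower, where 6.14% of all genes reached it, and by 1, Taf1b, as higher. Nop56, a core protein of the box C/D particles that guide methylation of ribosomal RNA, gave 3.1, 4.03, 2.89 and 3.56 in 80-week livers, against 5.43, 5.80, 4.08 and 4.12 in 8-week livers. The groups did not overlap, 8-week replicates 1 and 2 were highest, and the difference was -1.46 (SE 0.43, limma adjusted p = 0.243). Nob1, the nuclease that finishes the small-subunit RNA, gave 0.37, 0.88, 0.47 and 0.53 in 80-week livers, against 1.96, 1.53, 1.01 and 1.04 in 8-week livers. These groups did not overlap either. Ddx21, a nucleolar helicase, differed by -1.22, and Noc3l, a factor of early large-subunit assembly, by -1.37.

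This list did not follow the subunit genes array by array. Its median against each gene's mean was -0.46, 0.02, -0.38 and -0.28 in 80-week livers, against 0.53, 0.79, -0.10 and -0.02 in 8-week livers. The array lowest among the 8-week livers for the subunit genes, replicate 2, was the highest of all for biogenesis. Without 8-week replicate 2 the list's median was -0.41 with 16 genes at an unadjusted p under 0.05 as lower (4.83% of all genes), and without 8-week replicates 1 and 2 it was -0.22 with 2 (4.75% of all genes).

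Translation factors had a median difference of -0.17 over 47 genes, of which 41 were below 0 (48% of all genes) and 7 did not overlap, all lower (3.76% of all genes). Eif2b4, a subunit of the exchange factor for eIF2, gave 3.23, 3.88, 3.51 and 3.68 in 80-week livers, against 4.34, 4.41, 4.06 and 4.08 in 8-week livers, with no overlap (difference -0.65, limma adjusted p = 0.256). Eif6, which keeps the subunits apart until the large one is mature, differed by -0.60, Eef1g, part of the elongation factor complex, by -0.38, and Eif4e, which binds the mRNA cap, by -0.53. The array medians of this list were -0.16, 0.0021, -0.11 and -0.09 in 80-week livers, against 0.16, 0.15, 0.03 and 0.13 in 8-week livers, without overlap between the groups.

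Mitochondrial ribosomal proteins, which serve a separate ribosome, had a median difference of 0.15, with 61 of 78 above 0 and 0 past the threshold of limma's test. Mrpl27 had a difference of 0.52, Mrpl14 of 0.46 and Mrps18a of 0.36, whereas Mrps6 had one of -0.57. The median was 0.07 without 8-week replicate 2, where that of all genes was -0.03. Without 8-week replicates 1 and 2 it was -0.05, close to the -0.06 of all genes. The median of the cytosolic subunit genes was -0.24 and -0.20 in these settings. The 33 tested genes of the mTORC1 pathway and of its control of these mRNAs had a median of 0.03, with 17 above and 16 below 0.

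**Figure D5:**
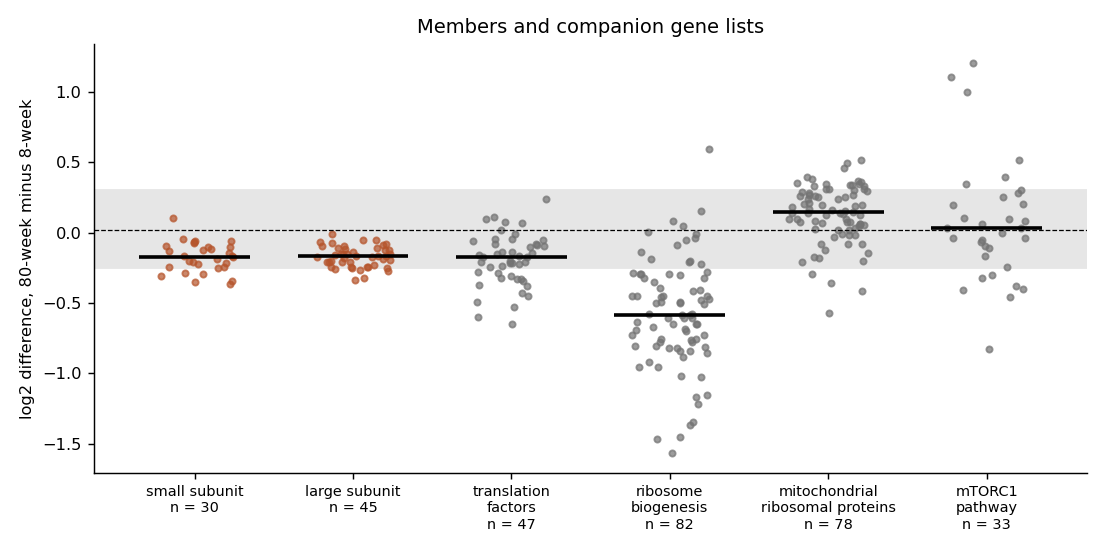
Log2 difference, 80-week minus 8-week (vertical axis), of the genes in each list (points) with the list's median (bar); the dashed line is the median and the grey band the interquartile range of all 17565 tested genes. Subunit genes form narrow clouds around -0.17, biogenesis genes spread down to -1.57, and mitochondrial ribosomal proteins centre on 0.15.

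Markers of liver cell types gave the makeup of the samples as far as bulk RNA shows it. In bulk tissue fewer cells of a type and less RNA per cell cannot be told apart. Of 8 hepatocyte markers 7 were tested, none passed the threshold, and their summed linear signal ran from 2083 to 3439 in 80-week livers and from 1558 to 3031 in 8-week livers. These sums follow the brightest probes of a list. Kupffer cell markers summed to between 61.0 and 240 in 80-week livers and between 49.6 and 155 in 8-week livers. Their highest sum was led by Marco in 80-week replicate 1, and Marco differed by -0.55 where the other 4 tested markers were above 0. Neutrophil markers summed to between 26.3 and 116 in 80-week livers and between 75.7 and 147 in 8-week livers. Stellate cell markers summed to between 168 and 243 in 80-week livers and between 126 and 193 in 8-week livers, with a median difference of 0.62 over 4 genes. Among these, Reln differed by 1.05 without overlap (limma adjusted p = 0.135) and Lrat by 1.34 (limma adjusted p = 0.207). Dcn, the brightest of them, differed by 0.19, and Des went the other way at -0.45. The endothelial markers went both ways, with a median difference of 0.14. Pecam1 differed by -0.62, lower without overlap (limma adjusted p = 0.309), and Clec4g by -0.19. Stab2 differed by 0.47, higher without overlap (limma adjusted p = 0.385), and Kdr by 0.49. Among the lists for 10 cell types Jchain, a plasma cell gene, was the one gene past the threshold, higher at 80 weeks. The part of cell makeup in the members' differences was not tested.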

How the data were processed

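The scanner files of 8 arrays hold each spot's intensity after background correction by Feature Extraction 10.7.3.1, per the file headers, which place probes on mm9. Version 9.1 of that software stands in the submitters' processing notes. A table of intensity values deposited by the authors gave, on each array, values within 1% of the processed signals for 100% of 56605 probes. It held 0 columns of other samples and served only as an alternative. Signals were converted to log2 after dropping outlier spots (59 to 97 per array), the spots of each probe were averaged, and the 75th percentile of the array was then subtracted. Saturation was marked on no spot. Testing required a probe well above background on at least 4 of 8 arrays, and the brightest such probe stood for its gene.

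The ages were compared by limma (version 3.58.1, R 4.3.3; lmFit, then eBayes), adjusted by Benjamini-Hochberg over all 17565 genes, at a threshold of 0.05; the script was tested on simulated data. Paralog ratios were compared by an exact permutation test over samples. The number of arrays limits the precision. The members, lists and tests were chosen with earlier results of these data known. Named members, 32 by rule, were those past the threshold, the 8 most negative and 8 most positive differences (only 2 were above 0), a set of core members, and paralogs with their partners. Single probes, and promoters shown, were picked after their values were seen. Promoter sequences are RefSeq's on GRCm38.p6, a later build than that of the array. Alternatives covered background correction, scaling, filters, choice of probe, prior, weights, block and omitted arrays. One gene of the companion lists is not reported here.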

Additional observations from a re-analysis of the deposited data

Results flagged for a closer look

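Of 78 groups of 4 arrays examined for a lone distant value, 4 had one (5.13%, where chance gives about 1 in 20). The members were Rps27a, Rps27, Rplp2 and Rplp0. In 8-week replicate 2, Rps27a was at 7.92 (others 8.40 to 8.47), Rps27 at 7.35 (others 7.90 to 7.97) and Rplp2 at 8.23 (others 8.61 to 8.69). In 80-week replicate 4, Rplp0 was at 6.97 (others 6.84 to 6.85).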

How the results depend on the processing

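In all 23 alternatives 0 members passed the threshold in either direction, and both subunit medians stayed below 0, between -0.28 and -0.13. Median scaling moved the median of all genes by -0.10 and testing without a filter moved it by 0.17. Relative to the median of all genes the small-subunit median was -0.19 as reported, -0.36 with no filter on dim probes, -0.24 with quantile scaling, -0.16 with array weights and -0.13 without 8-week replicate 1. Subunit genes with a difference below 0 numbered 72 to 75 where genes were tested singly. The number not overlapping and lower, 13, was 4 with normexp and quantile scaling, 22 with the percentile of probes detected on all arrays, 43 without 8-week replicates 1 and 2, and between 13 and 41 with 1 array left out. With 1 array left out the small minus large median ran from -0.0274 to 0.0106, the Rps4l over Rps4x ratio change from -0.20 to 0.14, and the differences of Rps4l from -0.38 to 0.0085, Rpl22l1 from -0.16 to 0.028, Rplp1 from -0.18 to 0.026 and Rps24 from -0.10 to 0.29. The Rpl7l1 over Rpl7 change was 0.017 with normexp and quantile scaling. Rps24 was -0.0031 under median scaling and -0.18 over the mean of its probes, and Rps27l was -0.0045 without 8-week replicates 1 and 2. The causes were not tested. Same-numbered arrays of the 2 groups correlated by 0.026, 0.14, 0.11 and 0.10, so the numbers were not taken to pair the samples; with the replicate block 0 members passed, as without it.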

Other observations

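Rps19bp1, which binds Rps19 and activates the deacetylase SIRT1, had the most negative difference of all names that met the rule. It gave 2.64, 3.14, 2.64 and 3.28 in 80-week livers, against 3.62, 3.52, 3.07 and 3.36 in 8-week livers, with overlap between the groups. The difference was -0.47 (SE 0.22, limma adjusted p = 0.377).

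Among genes of the mTORC1 pathway, Rragd, a Rag GTPase that ties mTORC1 to amino acids, gave -1.14, -1.75, -0.63 and -1.35 in 80-week livers, against -2.02, -1.93, -2.16 and -2.75 in 8-week livers. The groups did not overlap, and the limma adjusted p was 0.226. Deptor and Sesn1, both inhibitors of the pathway, differed by 1.11 and 1.20 with overlapping groups, and Rps6kb1, the S6 kinase, by -0.41 with no overlap. None of the 33 genes passed the threshold, and 3 as higher and 1 as lower reached an unadjusted limma p under 0.05, against 7.91% and 6.14% of all genes.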
